A study of Homo sapiens with 4 samples.

Results

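DNA replication and nucleotide synthesis were followed through 43 genes of the machinery that copies the genome: the proteins that license and fire origins, the polymerases with their clamp and clamp loader, the single-strand binding and strand-joining proteins, the enzymes that supply deoxynucleotides, the factors that restore chromatin and DNA methylation behind the fork, and the transcription factors E2F1 and E2F2. The genes were taken from a list of names drawn up with earlier results of these data known. Of measured values, the rule uses only the flag that a probe was well above background on all 4 arrays. All 43 had a value, out of 13592 genes with a value and 19483 genes named on the array. They were represented by 53 probes, each well above background on all 4 arrays, and 10 of the genes had 2 probes.

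The cells were HuCCT1, an established human line from a cancer of the bile ducts within the liver. They received 30 nM of 1 of 4 oligonucleotides. Pre-miR-376c is a mimic of mature miR-376c-3p, and its counterpart was Pre-miR negative control. The siRNA siGRB2 targets the adaptor protein GRB2, which links the EGF receptor to Ras. Its counterpart was siRNA negative control, a non-silencing siRNA. EGF (5 ng/ml) was added to all 4 cultures 24 h after transfection, in medium with 0.1% serum, and the RNA was taken 24 h later, so no culture without EGF and no untransfected culture is among the samples. Each transfection was measured on 1 single-colour array, which leaves no replicate: no p-value and no SD of a condition can be given, and precision is limited by how few arrays there are. Values are log2 signals less the array's 75th percentile, so that 0 is the 75th percentile and a step of 1 is 2-fold. They depend on the probe as well as on the RNA and are compared between arrays only, never between genes.

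Replication origins are licensed in G1, when the origin recognition complex, CDC6 and CDT1 load the MCM2 to MCM7 helicase onto DNA. CDC45 and the GINS complex then activate the helicase in S phase, and primase, the DNA polymerases, PCNA and the clamp loader copy both strands. Many of these genes are activated by E2F factors once the retinoblastoma protein is phosphorylated, a step that growth factor signalling through Ras promotes, so their summed RNA is commonly read as a sign of cycling cells. In RNA from a whole culture, more cells in S phase and more RNA per cell cannot be told apart.

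The mature strand of the transfected miRNA and forms of the E2F motif in members' promoters are shown as background to the treatment and the list. The RefSeq entry of the mature miRNA, from the MIR376C gene at chr14:101039732-101039752 on the plus strand (GRCh38.p14), has 21 bases. Its seed (bases 2 to 8), which pairs with target RNAs, is in capitals.
hsa-miR-376c-3p: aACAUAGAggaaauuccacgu

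A RefSeq promoter (250 bases before to 50 after the gene's start, GRCh38.p14) was at hand for 38 of the 43 genes. The letters TTTCGCGC or TTTGGCGC, forms of the E2F motif, were searched on both strands, and a match of one form can overlap a match of the other. They were found in 15 of the 38 promoters (39.5%), in 10 of 60 promoters of other genes of the pathway (16.7%), in 262 of 10842 promoters of genes with a value (2.42%) and in 382 of all 27305 promoters (1.40%). A match is a run of letters and not a proven binding site. The windows shown lie wholly upstream of the gene's start and are written along the gene's strand, with the motif in capitals. They belong to E2F1 (chr20:33686388-33686415, minus strand, motif starting at -20 from the gene's start), E2F2 (chr1:23531258-23531285, minus strand, -42), MCM6, which has a pair of them (chr2:135876578-135876605 and chr2:135876516-135876543, minus strand, -152 and -90), DUT (chr15:48332160-48332187, plus strand, -27), POLA1 (chrX:24693771-24693798, plus strand, -137), POLA2 (chr11:65261899-65261926, plus strand, -53), and UHRF1 (chr19:4909974-4910001, plus strand, -160). In POLA1 the motif is on the other strand and reads as its reverse complement. Both MCM6 matches overlap a TTTCGCGC on the other strand.
E2F1: gcaaaaaggaTTTGGCGCgtaaaagtgg
E2F2: cggcacgacgTTTGGCGCtaaaaaaaaa
MCM6, upstream match: gggctttgcaTTTGGCGCgaaatccctt
MCM6, match nearer the start: attggtcaggTTTGGCGCgaaatctcca
DUT: aaatttcggtTTTGGCGCgctccctgcg
POLA1: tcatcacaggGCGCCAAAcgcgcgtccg
POLA2: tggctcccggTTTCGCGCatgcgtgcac
UHRF1: ccgagcccgaTTTCGCGCgccctgagtt

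The array of siRNA negative control stood apart from the other 3, and this touches every comparison that uses it. Over 13592 genes the SD of the log2 differences was 0.50 to 0.55 in the 3 pairs of arrays that include it and 0.30 to 0.34 in the other 3 pairs, and 621 to 916 genes differed by at least 2-fold in the former against 127 to 155 in the latter. Its differences from Pre-miR negative control also depended on signal: the median was 0.08 over the 5109 genes with a mean log2 signal above 0 and -0.18 over the 8483 genes at or below 0. The 4 arrays shared 1 slide and 1 scan. GRB2 measured 0.62 with Pre-miR negative control, 0.07 with Pre-miR-376c, -0.10 with siRNA negative control and -0.65 with siGRB2, so it was lowest with the siRNA against it. The markers of biliary epithelium keratins 7, 8, 18 and 19, EPCAM, CDH1 and SOX9 were well above background on every array. Of 10 markers of other cell types, 9 had a probe and 4 (PTPRC, COL1A1, VWF and VIM) were above background on every array, VIM alone at a signal above 0, while the hepatocyte genes ALB and APOA2 and the fibroblast gene COL3A1 were above background on none.

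The replication genes were slightly higher with Pre-miR-376c than with its own control, lower with siGRB2 than with its own control, and the control arrays differed from each other by more than either. With Pre-miR-376c, 37 of the 43 genes were above Pre-miR negative control, where 46.9% of all genes were, with a list median of 0.21 (116% of the control) against -0.02 over all genes. With siGRB2, 12 of the 43 were above siRNA negative control, where 58.5% of all genes were, and the list median was -0.36 (77.7% of the control) against 0.11 over all genes. Between the control arrays, 34 of the 43 were higher with siRNA negative control, where 44.1% of all genes were, with a median of 0.44 (136%) against -0.08.

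Set against the control of the other kind, the list median of both treatments changed sign. With Pre-miR-376c, 14 of the 43 were above siRNA negative control (55.2% of all genes were), and the list median was -0.19 against 0.06 over all genes. With siGRB2, 30 of the 43 were above Pre-miR negative control (55.8% of all genes were), and the list median of 0.07 stood beside 0.03 over all genes. Thus the sign of the list median depended on the control for both treatments, and the 5 comparisons share their arrays. For siGRB2 against Pre-miR negative control the list median lay only 0.04 above that of all genes. The sign of this gap was not kept under every way of processing. Leaving the normexp corrections and the limit to genes with a mean log2 signal above 0 aside, it ranged from -0.02 to 0.06. Under the normexp background correction, described further below, it was -1.15. The quartile plot of the 5 comparisons sets these medians beside those of all genes.

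**Figure D1:**
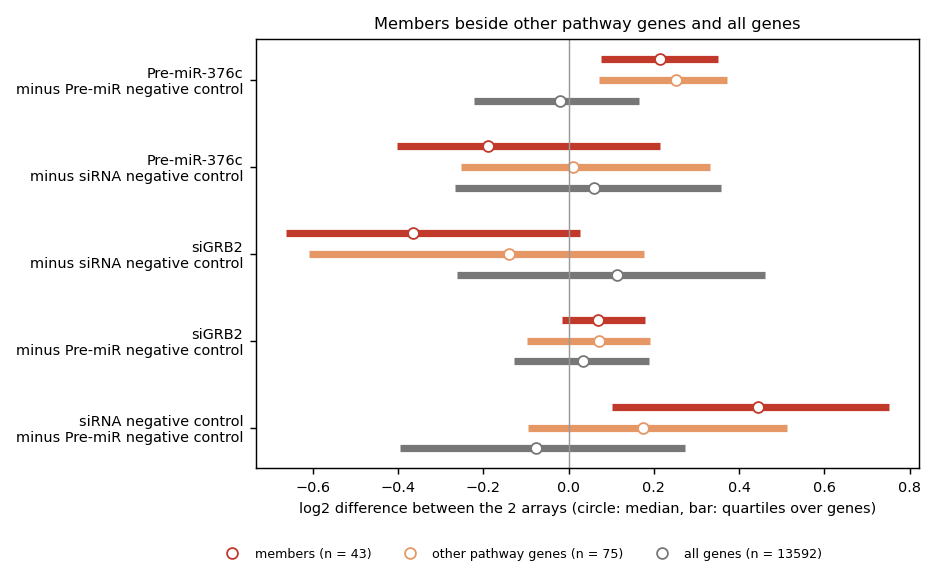
Log2 differences between pairs of arrays, with the median (circle) and the quartiles (bar) over the 43 members, 75 other genes of the pathway and all 13592 genes. The members' median lies above that of all genes for Pre-miR-376c against Pre-miR negative control (0.21 against -0.02) and for the control arrays against each other (0.44 against -0.08), and below it for both treatments against siRNA negative control (-0.19 and -0.36 against 0.06 and 0.11).

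The array with the highest value was siRNA negative control for 27 of the 43 genes, where it was highest for 31.1% of all genes. Pre-miR-376c was highest for 10 (17.9% of all genes), Pre-miR negative control for 3 (21.5%) and siGRB2 for 3 (29.6%). The lowest value was on the array of Pre-miR negative control for 24 members (55.8%, against 19.2% of all genes). It was on siGRB2 for 10 (16.6% of all genes), on siRNA negative control for 8 (43.3%) and on Pre-miR-376c for 1 (20.9%). With the array of siRNA negative control left out, Pre-miR-376c was the highest of the other 3 arrays for 33 of the 43 genes, where it was highest for 29.7% of all genes, and Pre-miR negative control the lowest for 28 (65.1%, against 34.4% of all genes). On those 3 arrays a member's values spanned 0.03 to 0.75, with a median span of 0.26. The bar chart of highest and lowest arrays shows the members beside all genes.

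Differences of 1.5-fold were frequent against siRNA negative control and rare against Pre-miR negative control. With Pre-miR-376c, 2 members, RFC3 and CDC45, were at least 1.5-fold above Pre-miR negative control (2.68% of all genes) and none was as far below it (5.12%), while against siRNA negative control 2 were above (11.4%) and 8 below (10.7%). With siGRB2, 1 member, POLE, was at least 1.5-fold above siRNA negative control (17.6%) and 12 were below (10.9%), while against Pre-miR negative control none was above (2.71%) and none below (2.4%). The control arrays themselves differed by that much in 14 members, 13 higher (10.4%) and 1, POLE, lower (14.6%) with siRNA negative control.

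Most members lay between the control arrays. With Pre-miR-376c, 31 of the 43 did so (5920 of all 13592 genes did). Above both controls were 10 (29.3% of all genes were), and 2, RPA1 and E2F1, were below both (27.2%). With siGRB2, 22 lay between (5136 of all 13592 genes did), 10 were above both (38.3%) and 11 were below both (23.9%). No member was beyond both controls by 1.5-fold with either treatment, and few of all 13592 genes were. With Pre-miR-376c, 110 genes were that far above both and 216 below both. With siGRB2 the numbers were 171 and 127. The plot of members by array shows each gene's 4 values.

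**Figure D2:**
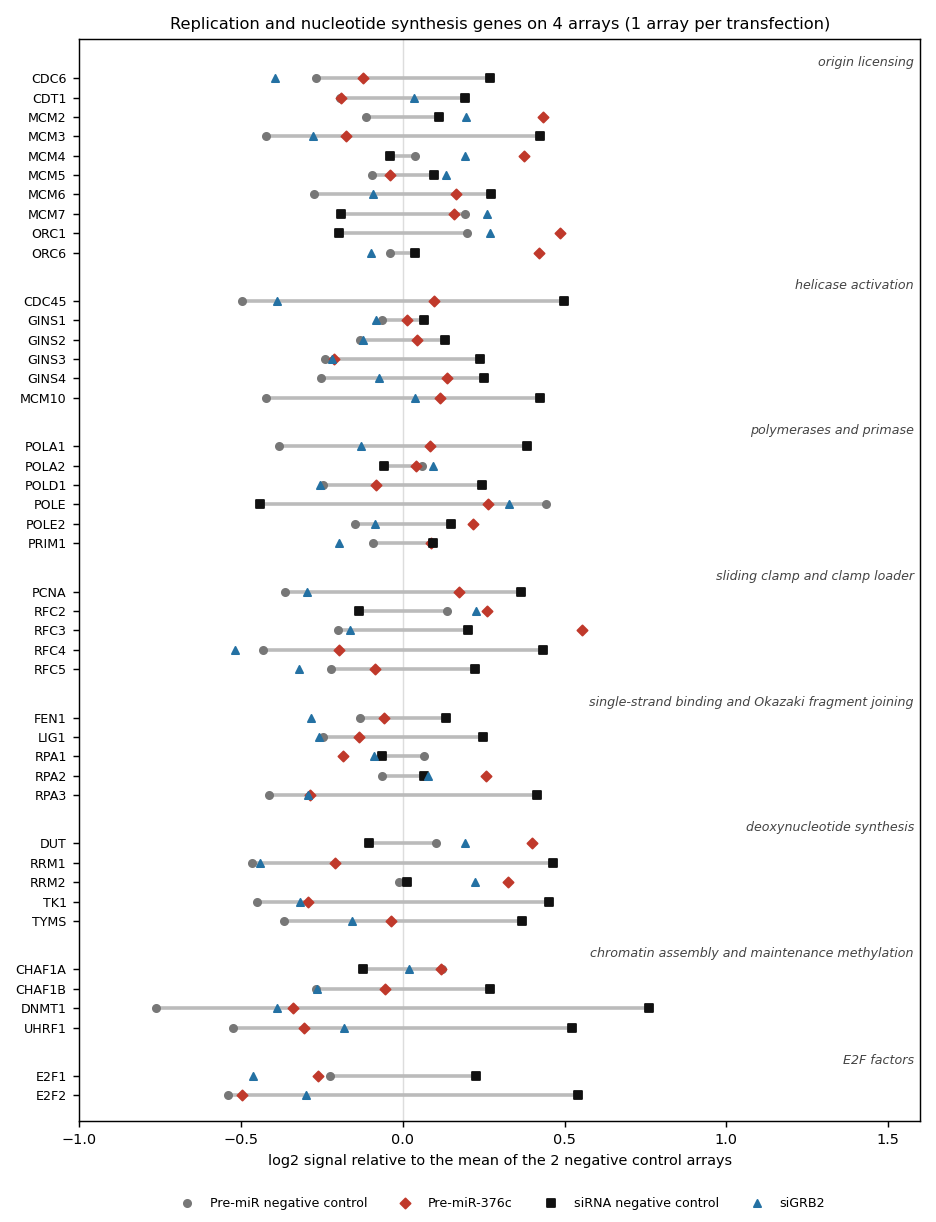
Log2 signal of each of the 43 members on the 4 arrays, relative to the mean of the 2 negative control arrays and grouped by role, with 1 array per point. The grey line joins the controls, siRNA negative control (black square) is the highest point for 27 genes, and Pre-miR-376c (red diamond) lies beyond both controls for 12 genes and siGRB2 (blue triangle) for 21.

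The counts of each role group stand beside these shares of all genes. With Pre-miR-376c, 46.9% were above Pre-miR negative control and 55.2% above siRNA negative control. With siGRB2, 55.8% and 58.5% were, in the same order. Among the 10 origin licensing genes, 9 were higher with Pre-miR-376c than with Pre-miR negative control, with a median of 0.27. With siGRB2, 8 were higher than with Pre-miR negative control, with a median of 0.15. Against siRNA negative control both treatments had 5 of the 10 higher and 5 lower, and the medians of 0.11 and -0.05 changed sign under a median shift (Pre-miR-376c) and under quantile normalization (siGRB2). ORC6, a subunit of the origin recognition complex, was the member furthest above both controls with Pre-miR-376c. ORC6 measured -1.36 with Pre-miR negative control, -0.90 with Pre-miR-376c, -1.28 with siRNA negative control and -1.42 with siGRB2. Its value with Pre-miR-376c was 0.46 and 0.38 above the controls, and the other 3 arrays lay within 0.14 of each other. ORC1, the large ATPase subunit of the same complex, measured -2.26 with Pre-miR negative control, -1.97 with Pre-miR-376c, -2.66 with siRNA negative control and -2.19 with siGRB2, so that Pre-miR-376c was highest and siRNA negative control lowest.

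CDC6, the loader that brings the helicase to the origin, measured -3.96 with Pre-miR negative control, -3.81 with Pre-miR-376c, -3.42 with siRNA negative control and -4.08 with siGRB2. It was lowest with siGRB2, by 0.66 against the siRNA control and by 0.12 against the other control, and this second gap was not kept with the normexp background correction without spots of high local background, which put siGRB2 between the controls. MCM4 and MCM2 are subunits of the helicase. MCM4 measured 0.85 with Pre-miR negative control, 1.18 with Pre-miR-376c, 0.77 with siRNA negative control and 1.0 with siGRB2. MCM2 measured 2.22, 2.77, 2.45 and 2.53 in the same order. Both genes were highest with Pre-miR-376c, by 0.34 and 0.32 over the nearer control. With siGRB2 they were 0.15 and 0.08 over the nearer control, and a median shift put both between the controls. MCM3 was the licensing gene with the largest gap between the controls (0.85), and with Pre-miR-376c and siGRB2 it lay 0.60 and 0.70 below the higher control.

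All 6 helicase activation genes had the same order of the controls, and none was above both controls with either treatment. With Pre-miR-376c, 6 of 6 were above Pre-miR negative control (median 0.28) and 6 of 6 below siRNA negative control (median -0.21). With siGRB2, 6 of 6 were below siRNA negative control (median -0.36) and 5 of 6 above Pre-miR negative control (median 0.07). CDC45, which joins the MCM ring to form the active helicase, measured 2.16 with Pre-miR negative control, 2.75 with Pre-miR-376c, 3.15 with siRNA negative control and 2.27 with siGRB2. Its 2 treated values thus lay between the controls, 0.59 above the one and 0.40 below the other with Pre-miR-376c, and 0.11 above and 0.89 below with siGRB2. GINS3, a subunit of the GINS complex, measured 0.66, 0.69 and 0.68 with Pre-miR negative control, Pre-miR-376c and siGRB2, and 1.14 with siRNA negative control. These first 3 values spanned 0.03, the smallest span of any member on those arrays. MCM10, which helps to fire origins, was the member furthest above Pre-miR negative control with siGRB2 (0.46).

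Of the 6 polymerase and primase genes, 4 were above Pre-miR negative control with Pre-miR-376c (median 0.17) and 3 with siGRB2 (median 0.01, which turned negative under a median shift and with a percentile over detected probes). POLE, the catalytic subunit of the leading strand polymerase, had the lowest difference between the controls of all members, and was 1 of 9 that were lower with siRNA negative control. POLE measured -3.70 with Pre-miR negative control, -3.88 with Pre-miR-376c, -4.59 with siRNA negative control and -3.82 with siGRB2. Only the array of siRNA negative control was low, so that both treatments were above it (0.71 and 0.77) and below the other control (-0.18 and -0.11). Both POLE probes were lower with siRNA negative control than with Pre-miR negative control, by 0.64 and 1.13. For siGRB2 against Pre-miR negative control the same probes were of opposite sign (0.09 and -0.32). POLA1, the catalytic subunit of the priming polymerase, had the opposite order, and with 0.77 the largest gap between the controls among the polymerases other than POLE.

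All 5 genes of the sliding clamp and its loader were above Pre-miR negative control with Pre-miR-376c, with a median of 0.24. With siGRB2, 4 of 5 were below siRNA negative control, with a median of -0.54, and 3 of 5 were above Pre-miR negative control, with a median of 0.04 that turned negative with a percentile over detected probes. PCNA, the clamp that holds polymerases on DNA, measured 2.52 with Pre-miR negative control, 3.06 with Pre-miR-376c, 3.25 with siRNA negative control and 2.59 with siGRB2. Pre-miR-376c differed by -0.19 from siRNA negative control, and siGRB2 by 0.07 from Pre-miR negative control. RFC3, a subunit of the loader, was the member furthest above Pre-miR negative control with Pre-miR-376c. RFC3 measured -2.20 with Pre-miR negative control, -1.45 with Pre-miR-376c, -1.80 with siRNA negative control and -2.16 with siGRB2. Pre-miR-376c was highest, with a difference of 0.75 from the one control and of 0.35 from the other. Its 2 probes were 0.71 and 0.80 above Pre-miR negative control and 0.41 and 0.30 above siRNA negative control.

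RFC4 and RFC2, further subunits of the loader, differed in opposite directions between the controls. RFC4 measured 2.29 with Pre-miR negative control, 2.53 with Pre-miR-376c, 3.16 with siRNA negative control and 2.21 with siGRB2, so that it was lower with both treatments than with siRNA negative control (-0.63 and -0.95). RFC2 measured 0.03 with Pre-miR negative control, 0.15 with Pre-miR-376c, -0.25 with siRNA negative control and 0.12 with siGRB2. It was above both controls with both treatments, by 0.12 and 0.09 over the nearer one.

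Of the 5 genes of single-strand binding and Okazaki fragment joining, 4 were above Pre-miR negative control with Pre-miR-376c (median 0.11) and 2 with siGRB2 (median -0.01), and against siRNA negative control 4 of 5 were lower with either treatment (medians -0.19 and -0.42). RPA3, the small subunit of the single-strand binding complex, measured 4.18 with Pre-miR negative control, 4.31 with Pre-miR-376c, 5.01 with siRNA negative control and 4.30 with siGRB2, and siRNA negative control alone was high. RPA1, the large subunit, measured 0.19, -0.07, 0.06 and 0.03 in the same order and was the only member lowest with Pre-miR-376c. This rested on 1 of its 2 probes, since the brighter probe was 0.05 and 0.22 above the controls and the dimmer one 0.55 and 0.46 below them. FEN1, the nuclease that trims Okazaki fragments, measured 0.83 with Pre-miR negative control, 0.90 with Pre-miR-376c, 1.09 with siRNA negative control and 0.68 with siGRB2. FEN1 was lowest with siGRB2, by 0.42 and 0.15.

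All 5 deoxynucleotide synthesis genes were above Pre-miR negative control with both treatments, with medians of 0.30 (Pre-miR-376c) and 0.13 (siGRB2, which turned to -0.82 under the normexp background correction described with the siGRB2 comparison). Against siRNA negative control 3 of the 5 were lower with both, with medians of -0.40 and -0.52. The large and the small subunit of ribonucleotide reductase, which makes deoxynucleotides from ribonucleotides, differed between the controls. RRM1, the large subunit, measured 3.26 with Pre-miR negative control, 3.51 with Pre-miR-376c, 4.19 with siRNA negative control and 3.28 with siGRB2. RRM2, the S phase subunit, measured 0.20 with Pre-miR negative control, 0.53 with Pre-miR-376c, 0.22 with siRNA negative control and 0.43 with siGRB2. The controls differed by 0.93 for RRM1 and by 0.03 for RRM2, and RRM2 was above both in the treated cells (by 0.34 and 0.31 for Pre-miR-376c, and by 0.24 and 0.21 for siGRB2). Under a median shift RRM2 with siGRB2 lay between the controls.

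TYMS, thymidylate synthase, measured 2.31 with Pre-miR negative control, 2.64 with Pre-miR-376c, 3.05 with siRNA negative control and 2.52 with siGRB2, and both treatments lay between the controls. TK1, the salvage thymidine kinase, had the same order, with controls 0.90 apart. DUT, which removes dUTP, was the exception beside RRM2: it was lowest with siRNA negative control and above both controls in the treated cells, by 0.30 for Pre-miR-376c and by 0.09 for siGRB2.

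The 4 genes of chromatin assembly and maintenance methylation had the largest median gap between the controls of the 8 role groups (0.79), and all 4 lay between the controls with both treatments. DNMT1, the maintenance DNA methyltransferase, was the member with the largest gap. DNMT1 measured 0.40 with Pre-miR negative control, 0.82 with Pre-miR-376c, 1.93 with siRNA negative control and 0.78 with siGRB2. It was 0.42 and 0.38 above Pre-miR negative control and 1.10 and 1.15 below siRNA negative control. UHRF1, which guides DNMT1 to newly copied DNA, was 1.05 higher with siRNA negative control than with the other control, and its 2 probes gave 1.02 and 1.08. CHAF1B, a subunit of the chromatin assembly factor, was 0.54 higher there, and CHAF1A, a partner subunit, was 0.25 lower, with its probes at 0.38 and -0.87.

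E2F1 and E2F2, which activate S phase genes, gave medians near 0 against Pre-miR negative control with both treatments (0.00 and 0.00), with a sign that changed between normalizations, and were lower than siRNA negative control with both (medians -0.76 and -0.77). E2F1 measured 0.68 with Pre-miR negative control, 0.65 with Pre-miR-376c, 1.13 with siRNA negative control and 0.44 with siGRB2. It was the member furthest below both controls with siGRB2, by 0.69 and 0.24, and the second gap was 0.24 to 0.29 under the 3 other scalings and the deposited values. With Pre-miR-376c it was 0.03 below the nearer control, and it lay between the controls under a median shift and in the deposited values. E2F2 measured -0.70 with Pre-miR negative control, -0.66 with Pre-miR-376c, 0.38 with siRNA negative control and -0.46 with siGRB2, and siRNA negative control alone was high.

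Of the members, 6 had a probe printed in 10 spots on each array, which shows the measurement error within an array but not the spread between cultures. The SD between spots was 0.03 to 0.08. How often the spots of all probes printed in 10 spots overlap between arrays is not given here. Whether a lack of overlap is particular to these genes was not tested. ORC6 was 0.46 ± 0.07 (SD of the difference between spots, 10 spots per array) above Pre-miR negative control with Pre-miR-376c and 0.38 ± 0.07 above siRNA negative control, and its spots did not overlap those of either control. The PCNA probe was 0.53 ± 0.07 above the one control and 0.26 ± 0.07 below the other with Pre-miR-376c, again without overlap of spots. With siGRB2 it was 0.69 ± 0.06 below siRNA negative control without overlap, and 0.10 ± 0.06 above Pre-miR negative control with overlapping spots.

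E2F1 with siGRB2 was 0.69 ± 0.11 below siRNA negative control without overlap, and 0.24 ± 0.11 below Pre-miR negative control, where the spots overlapped. CHAF1B with siGRB2 was 0.53 ± 0.10 below siRNA negative control without overlap and 0.00 ± 0.10 from the other control. GINS2 and PRIM1, a GINS subunit and the catalytic subunit of primase, were 0.26 ± 0.08 and 0.29 ± 0.10 below siRNA negative control with siGRB2, both without overlap, and their spots overlapped in every other comparison of a treatment with a control. For the probes with 1 spot the error estimate of the scanner software gave 0.20 to 0.32 for a difference between arrays, which many of the differences from the nearer control do not exceed. The plot of 10-spot probes shows these values.

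**Figure D3:**
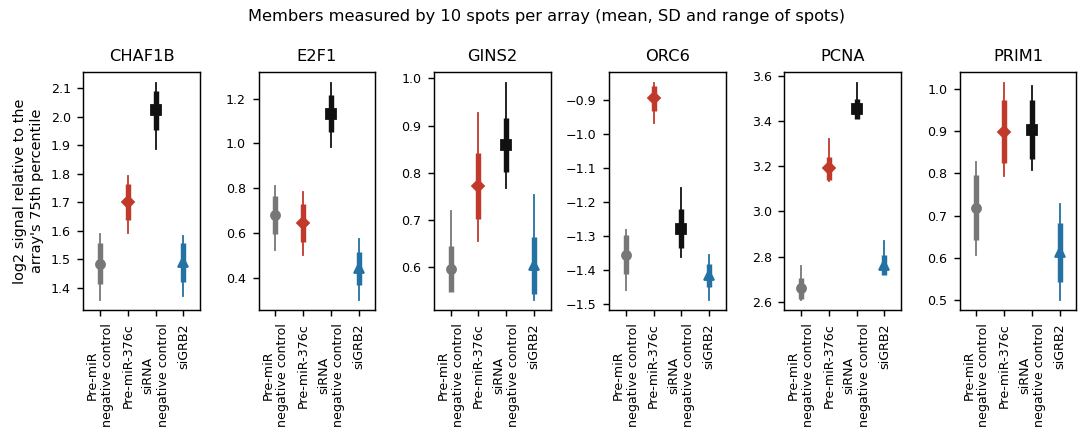
Log2 signal relative to the array's 75th percentile of the 6 members with a probe in 10 spots, on each of the 4 arrays, with the mean (marker), the SD (thick bar) and the range (thin line) of the spots, each panel on its own scale. ORC6 with Pre-miR-376c lies clear of all other arrays, and the siRNA negative control array lies above siGRB2 for all but ORC6 with no overlap of spots. The share of all 10-spot probes without overlap is not given.

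The 10 genes with 2 probes show how far a value can depend on the probe. Their probes were of opposite sign in 5 of 10 genes for Pre-miR-376c against Pre-miR negative control, in 3 against siRNA negative control, in 4 for siGRB2 against siRNA negative control, in 5 against Pre-miR negative control and in 2 between the controls. The median gap between the probes of a gene was 0.18 to 0.29. CHAF1A and RPA1 had probes of opposite sign in all 4 comparisons of a treatment with a control. The probe pairs of PCNA and DUT had the same sign in every comparison.

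The members also stood apart from all genes of the same signal range when each treatment was set against its own control and between the controls. Over the 32 members with a mean log2 signal above 0, the median was 0.20 for Pre-miR-376c against Pre-miR negative control (0.01 over the 5109 genes of that range), -0.44 for siGRB2 against siRNA negative control (-0.04) and 0.47 between the controls (0.08). Over the 11 members at or below 0 it was 0.22 (-0.05 over 8483 genes), -0.23 (0.22) and 0.30 (-0.18). In these comparisons the members' medians lay on the same side of those of all genes in both ranges. Against the other control they lay closer together among the dim genes. For Pre-miR-376c against siRNA negative control the medians were -0.24 (-0.05 over all genes) above 0 and 0.10 (0.13) at or below 0. For siGRB2 against Pre-miR negative control they were 0.09 (0.04) and 0.04 (0.03).

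Members with and without the E2F letters in their promoter were set side by side. The 15 with a match had a median of 0.22 for Pre-miR-376c against Pre-miR negative control and -0.36 for siGRB2 against siRNA negative control, and the 23 without a match had 0.18 and -0.42. Against the other control the medians were -0.11 and -0.31 (Pre-miR-376c) and 0.09 and 0.02 (siGRB2), and between the controls 0.45 and 0.44. DNMT1 and POLE, which both hold a match, stood at opposite ends of the differences between the controls (1.53 and -0.89).

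With siGRB2 the result depended on the background correction as well as on the control. The normexp correction gave list medians of -0.78 against siRNA negative control and -0.44 against Pre-miR negative control and put 29 members below both controls. Over all genes the medians under this correction were 0.76 and 0.71 in the same order. The share of all genes that it put below both controls is not given. This correction turned the medians of 6 of the 8 role groups against Pre-miR negative control from above 0 to below 0: origin licensing, helicase activation, polymerases and primase, the clamp and its loader, deoxynucleotide synthesis and the E2F factors. The siGRB2 array held 7 spots whose local background was more than 10 times the median of the array, and the other arrays held 0. Without these spots the same correction gave -0.33, 0.06 and 12 members. The medians over all genes were then 0.08 and 0.08.

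The pathway holds more genes than the list, and 75 others were measured: other origin and helicase factors, polymerase and clamp loader subunits, fork protection and topoisomerase genes, nucleotide enzymes, histone supply genes, and other E2F, pocket protein and G1/S cyclin genes. With Pre-miR-376c, 64 of the 75 were above Pre-miR negative control (46.9% of all genes were), with a median of 0.25. Of them 2 (PPAT and CCNE2) were above it by 1.5-fold (2.68% of all genes). Against siRNA negative control, 40 were above (55.2%), with a median of 0.01. With siGRB2, 32 were above siRNA negative control (58.5% of all genes were), with a median of -0.14. By 1.5-fold, 7 were above it (17.6%) and 22 below it (10.9%). Against Pre-miR negative control, 46 were above (55.8%), with a median of 0.07. Against both controls, 34 were above (29.3% of all genes) and 5 below (27.2%) with Pre-miR-376c. With siGRB2, 23 were above both (38.3%) and 20 below both (23.9%). The members had a larger gap between the controls (0.44) than these genes (0.18).

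Single genes of the pathway lay further beyond both controls than any member. E2F5, an E2F factor that works with pocket proteins, was above both controls with both treatments: it measured -2.41 with Pre-miR negative control, -1.90 with Pre-miR-376c, -2.63 with siRNA negative control and -1.82 with siGRB2. It exceeded the nearer control by 0.51 (Pre-miR-376c) and 0.59 (siGRB2). SLBP, which binds histone mRNA, and TICRR, which helps to fire origins, were next with Pre-miR-376c, by 0.47 and 0.45 over the nearer control. TK2, the mitochondrial thymidine kinase, CHTF18, a subunit of an alternative clamp loader, and GMNN, the CDT1 inhibitor geminin, were furthest below both controls with Pre-miR-376c, by -0.19, -0.12 and -0.09.

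With siGRB2, DBF4, the activator of the CDC7 kinase that fires origins, was the gene of the pathway furthest below both controls. DBF4 measured -2.48 with Pre-miR negative control, -2.32 with Pre-miR-376c, -2.23 with siRNA negative control and -3.18 with siGRB2, so that siGRB2 alone was low, by 0.70 against the nearer control. MTBP and ORC3, both origin factors, followed at -0.46 and -0.34. CCND1, cyclin D1, and E2F4, a repressor E2F factor, were 0.40 and 0.40 over the nearer control with siGRB2. CCND1 was above both controls with Pre-miR-376c too, by 0.38, and E2F4 was lower with siRNA negative control than on any other array, by 1.15 or more.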

How the data were processed

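Total RNA (200 ng) of 4 transfected HuCCT1 cultures was labelled with Cy3 and measured on an Agilent human 44 K design, 1 array per condition. The authors deposited spot intensities of the Agilent Feature Extraction software (10.7.3.1 per the file headers) and log2 values per probe from GeneSpring GX, shifted to the 75th percentile. Beside the scanner values, the deposited log2 table differed for the members' probes by a constant per array (0.38 to 0.46, constant within 0.001). The medians of its columns were -3.39 (Pre-miR negative control), -3.44 (Pre-miR-376c), -3.59 (siRNA negative control) and -3.36 (siGRB2). It is thus on the log2 scale with the direction of the scanner values and without centring of genes.

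Computation used pandas (2.3.3) and numpy (2.4.6) in Python (3.11.15), and limma (3.58.1) in R (4.3.3) for normexp. The processed intensities of 43118 spots (34127 probes) per array were put on the log2 scale, less the 75th percentile of the non-control spots on that array (1719 to 2689 before log2). Spots with an outlier flag (289 to 329 per array) were left out, no spot was saturated, and spots of one probe were averaged. A probe was kept when its spots were flagged well above background on all 4 arrays, and probes of a gene were averaged. Accessions were named through a RefSeq table of GRCh38.p14, which gave a gene for 25422 probes, used for names and sequences since the file headers name another build for the probes.

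No test was made, with 1 array per condition. The methods' fold limit was 2, and a limit of 1.5 was used here. A member is called above or below both controls when its treated value lies outside them. The calculation was tested on simulated arrays. The members and all lists were chosen with earlier results of these data known. Members named with all 4 values were, by rule, the 3 furthest beyond both controls in each direction and treatment, the furthest member of each role group, and RRM2, TYMS, PCNA, CDC6, MCM2 and E2F1. GRB2 and the 3 highest and 3 lowest other pathway genes per treatment were also named. Other members named were chosen after their values were seen, as ends of a range or as members of a count of 5 or fewer. The alternatives were 3 other scalings (quantile, median, a percentile over detected probes), the normexp background (offset 50), the deposited values, flagged spots kept, no detection filter, 2 other ways to combine probes, a 2-fold limit and other controls. A normexp correction without spots of high local background and a limit to genes with a mean log2 signal above 0 were added after the data were seen. A further marker of biliary epithelium is not reported here.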

Additional observations from a re-analysis of the deposited data

Results flagged for a closer look

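The list of 43 genes went opposite ways against each treatment's own control, at a median of 0.21 with Pre-miR-376c against Pre-miR negative control and of -0.36 with siGRB2 against siRNA negative control. The difference between the treatments was not tested, since each rests on 1 array. CDC45 was the member that differed by at least 1.5-fold in both, at 0.59 (Pre-miR-376c) and -0.89 (siGRB2), and this difference was not tested either. Compared directly, siGRB2 was below Pre-miR-376c for 35 of the 43 members, with a median of -0.17, where 41.1% of all genes were below and the median was 0.06. The control arrays differed by 0.44 for the list and by 0.99 for CDC45.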

How the results depend on the processing

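No paired analysis was possible because no group held more than 1 array. The list median kept its direction under all scalings, probe rules and filters in every comparison, with the exception of siGRB2 against Pre-miR negative control under the normexp correction (-0.44, and -0.78 against siRNA negative control). Leaving the normexp corrections and the limit to bright genes aside, the medians ranged from 0.17 to 0.33 (Pre-miR-376c against Pre-miR negative control), -0.35 to -0.11 (against siRNA negative control), -0.65 to -0.32 (siGRB2 against siRNA negative control), 0.02 to 0.10 (against Pre-miR negative control) and 0.33 to 0.72 (between the controls). Less the median of all genes, they ranged from 0.19 to 0.25, -0.30 to -0.15, -0.48 to -0.38, -0.02 to 0.06 and 0.35 to 0.52.

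In the same order of comparisons, a median shift gave 0.33, -0.35, -0.65 and, between the controls, 0.72. Quantile normalization gave -0.11 for Pre-miR-376c against siRNA negative control and 0.33 between the controls, where a percentile over detected probes gave 0.34 and the deposited values 0.52. The deposited values gave -0.44 for siGRB2 against siRNA negative control, and the brightest probe gave -0.26 for Pre-miR-376c against siRNA negative control. With Pre-miR-376c, the members below both controls numbered 2, and 1 under a median shift, the deposited values and the brightest probe, and 4 with a percentile over detected probes and both normexp corrections. Those above both numbered 10, and 6 among bright genes. Those 1.5-fold from their own control numbered 2, and 5 under a median shift, 1 with a percentile over detected probes, both normexp corrections and among bright genes, 0 at 2-fold and against the mean of both controls, and 10 against the other control. With siGRB2, those below both numbered 11, and 29 with normexp; those above both numbered 10, and 4 under a median shift; and those 1.5-fold from their own control numbered 13, and 24 under a median shift, 33 with normexp, 1 at 2-fold, 0 against the other control and 0 against the mean of both.

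Of 856 values of the 20 named members under the alternatives, 44 changed sign, 22 of them with the normexp correction that kept the 7 spots of high local background. Of the other 22, 7 moved by more than the scanner error: with siGRB2 against siRNA negative control under a median shift MCM2 (-0.20), MCM4 (-0.05) and RRM2 (-0.07), with Pre-miR-376c PCNA against siRNA negative control under quantile normalization (0.02) and RPA1 against both controls with its brightest probe (0.05 and 0.22), and CDC6 with siGRB2 against Pre-miR negative control under the other normexp correction (0.11). In 6 the sign changed with both values beyond that error, all with the former normexp correction: CDC6 (2.44), MCM4 (-0.42), RFC3 (1.28) and RRM2 (-0.21) with siGRB2 against siRNA negative control, and MCM2 (-0.62) and TYMS (-0.57) against Pre-miR negative control. The highest value fell on siRNA negative control for 22 to 31 members under the scalings and corrections, and Pre-miR-376c was the highest of the other 3 arrays for 27 to 38. The number of arrays limits every value, and the signal of the dimmest members (CDC6, MCM10 and POLE) lay closest to background.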
